A study of Sus scrofa with 6 samples.

Results

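Fructose-1,6-bisphosphatase was named for 2 of the 550 probe sets that the authors kept from a comparison of a red with a white skeletal muscle on the porcine GeneChip. Names were at hand for those 550 alone, so how many of the array's 24123 probe sets detect the enzyme is unknown. The 2 were chosen by name from that table, which had itself been selected on a difference between the 2 muscles in these same arrays. The direction and size of each difference below are therefore descriptions. Soleus was set against longissimus dorsi. Both muscles were taken at slaughter from 3 Meishan gilts of the same litter, aged 150 days and fed the same way, with 3 arrays of soleus and 3 arrays of longissimus dorsi. The labels describe the soleus (SE in the protocols), sampled in its deep part, as the oxidative muscle, and the longissimus dorsi, sampled at the last rib, as a fast-twitch glycolytic muscle of the back. No animal was treated, and 1 litter of 1 breed limits how far the values extend. Whether a replicate number stands for the same pig in both muscles is not stated.

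Fructose-1,6-bisphosphatase removes a phosphate from fructose 1,6-bisphosphate to give fructose 6-phosphate, the step that runs against phosphofructokinase on the way from lactate and other precursors to glucose and glycogen. Mammals have a gene for each of 2 isozymes. FBP1 encodes the enzyme of liver and kidney gluconeogenesis, which is also found in monocytes, and FBP2 encodes the muscle enzyme, which takes part in making glycogen from lactate in muscle fibres and binds aldolase there. The probe set called FBP2 here has no gene symbol in the authors' deposited table and is titled there by its strong similarity to human FBP2. The probe set called FBP here carries the symbol FBP and the plain enzyme name. The label FBP1 is not settled for it. No probe set of the table had the symbol FBP1, and in RefSeq's Sscrofa11.1 annotation FBP is listed as a synonym of 4 genes, namely FBP1, FBP2 and the folate receptor genes FOLR1 and FOLR2, of which the enzyme name leaves FBP1 and FBP2. The 2 isozyme genes are neighbours in that annotation, with 0 genes between them. Probe sequences were not analysed here, so it was not tested whether either probe set also binds the other isozyme's transcript.

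Values are on the log2 scale, and 0 is the middle of the 6 arrays for each probe set separately. A difference between muscles can be read from it, whereas a level cannot, and it stays unknown which isozyme was the more abundant and whether either was near background. The 2 middle values of each probe set are mirror images around 0 by this centring. In RNA of whole muscle, fewer cells of a type and less RNA per cell cannot be told apart.

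FBP2, the muscle isozyme, had the lower values in soleus. It read -0.28, -0.31 and -1.07 in soleus replicates 1, 2 and 3, against 0.36, 0.39 and 0.28 in longissimus dorsi replicates 1, 2 and 3. The muscles did not overlap, and the 3 longissimus dorsi arrays lay close together while soleus replicate 3 stood well below the other soleus arrays. The means were -0.55 ± 0.45 in soleus and 0.34 ± 0.06 in longissimus dorsi (SD, n = 3 arrays each). The log2 difference was -0.90 (SE 0.23 in limma), which is 1.86-fold. Over the 9 ways to set a soleus array against a longissimus dorsi array it ran from -1.46 to -0.56. The nearest arrays of the 2 muscles were 0.56 apart, less than the range of 0.79 within soleus and more than the range of 0.11 within longissimus dorsi. Without soleus replicate 3 the difference was -0.64 (SE 0.16).

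FBP, the probe set named for the enzyme without an isozyme number, ran the other way and had the higher values in soleus. It read 1.16, 0.21 and 0.65 in soleus replicates 1, 2 and 3, against -0.38, -0.21 and -0.64 in longissimus dorsi replicates 1, 2 and 3. Again the muscles did not overlap, and soleus replicate 1 was the highest array and soleus replicate 2 the one closest to longissimus dorsi. The means were 0.68 ± 0.47 in soleus and -0.41 ± 0.22 in longissimus dorsi (SD, n = 3 arrays each). The log2 difference was 1.09 (SE 0.25), which is 2.12-fold, and it ran from 0.42 to 1.81 over the 9 pairs of arrays. The nearest arrays were 0.42 apart, against ranges of 0.95 within soleus and 0.43 within longissimus dorsi. The range inside soleus was thus wider than this nearest distance, though narrower than the difference of 1.09 between the means. Without soleus replicate 1 the difference was 0.84 (SE 0.22).

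**Figure D1:**
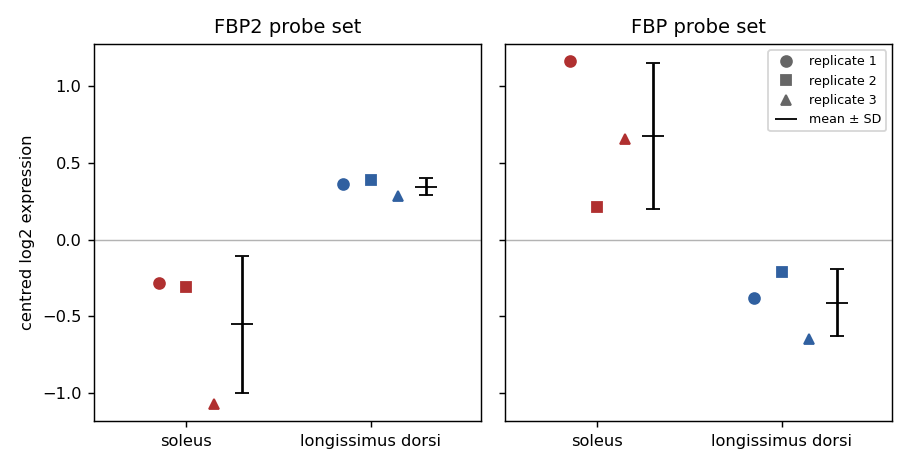
Centred log2 expression of the FBP2 probe set (left panel) and the FBP probe set (right panel) on each array, with soleus in red and longissimus dorsi in blue; the marker shape gives the replicate number and the bars the mean ± SD of 3 arrays. The 3 soleus arrays sit below all longissimus dorsi arrays for FBP2 (means -0.55 and 0.34) and above them for FBP (means 0.68 and -0.41).

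The arrays that set the spread were not the same for both probe sets. Soleus replicate 3 held the lowest FBP2 value, and soleus replicate 1 the highest FBP value. Soleus replicate 2 gave the FBP value nearest to longissimus dorsi and an FBP2 value close to that of soleus replicate 1. In longissimus dorsi, replicate 2 had the highest value of both probe sets and replicate 3 the lowest value of both. Within longissimus dorsi the 2 probe sets therefore kept the same order of arrays, while between the muscles they moved in opposite directions.

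Setting the probe sets against each other on the same array removes any shift that both share there. FBP2 minus FBP was -1.44, -0.52 and -1.72 in soleus replicates 1, 2 and 3, against 0.74, 0.60 and 0.93 in longissimus dorsi replicates 1, 2 and 3. All soleus arrays were below 0 and all longissimus dorsi arrays above it, which the choice of 2 probe sets with opposite directions brings with it. The mean gap was -1.23 ± 0.63 in soleus and 0.75 ± 0.16 in longissimus dorsi (SD, n = 3 arrays each). The ratio of FBP2 to FBP signal thus differed by -1.98 on the log2 scale (SE 0.38 from the arrays' own spread), or 3.95-fold, with the ratio lower in soleus. Over the 9 pairs of arrays the difference ran from -2.65 to -1.12. The nearest distance of 1.12 was about as large as the range of 1.20 within soleus and larger than the range of 0.32 within longissimus dorsi. Since each probe set has its own unknown zero, the sign of a gap does not say which isozyme predominated in a muscle.

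**Figure D2:**
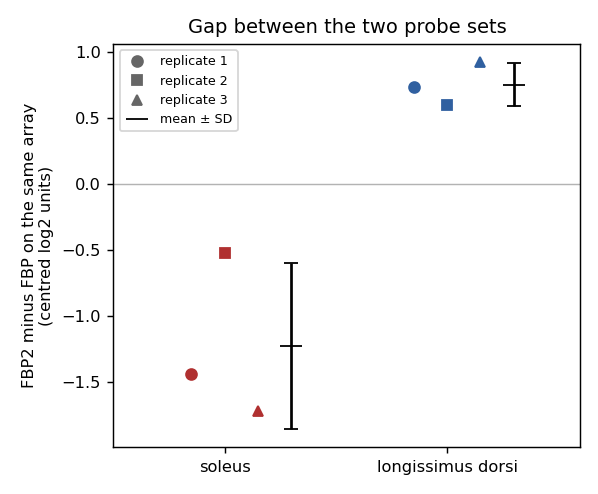
FBP2 minus FBP on the same array, in centred log2 units, for the 3 soleus arrays (red) and the 3 longissimus dorsi arrays (blue), with the mean ± SD beside each group. The gap runs from -1.72 to -0.52 in soleus and from 0.60 to 0.93 in longissimus dorsi, and the widest spread is within soleus.

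Against the array as a whole, both differences were among the larger ones but were not extreme. Of 23935 probe sets without the controls, 248 (1.04%) had a larger absolute difference than FBP and 520 (2.17%) a larger one than FBP2. Under limma with Benjamini-Hochberg adjustment at 0.05, 0 of the 2 members passed, where 2 probe sets of the whole array did (0.00836%). Both had an unadjusted p under 0.05 with at least 1.5-fold, FBP on the side that 2.89% of all probe sets shared and FBP2 on the side of 2.20%. Non-overlap of the muscles was met with higher soleus values by 6.08% of all probe sets and with lower soleus values by 8.11%. These shares stand beside the members for orientation only, since the members were taken from a list built on that contrast.

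**Figure D3:**
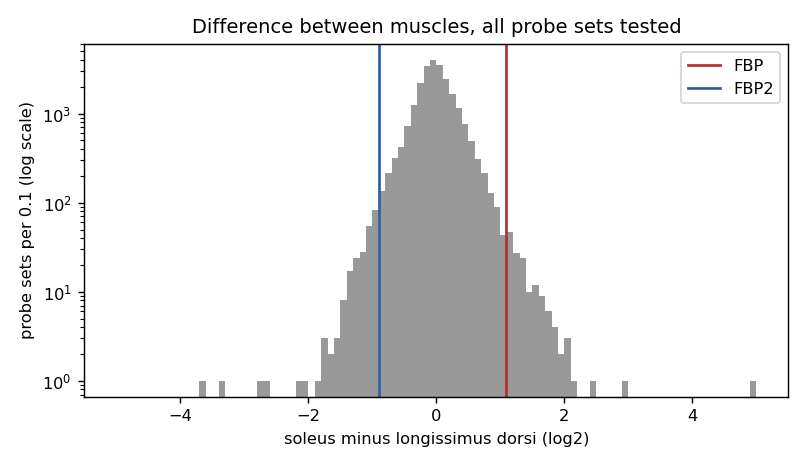
Number of probe sets (log scale, bins of 0.1) by their log2 difference, soleus minus longissimus dorsi, over the 23935 probe sets tested. The vertical lines mark FBP at 1.09 and FBP2 at -0.90, both in the flanks of the distribution and inside its extremes.

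Within the authors' deposited table, FBP had a fold of 2.12 with a p-value of 0.0226 and FBP2 a fold of 1.86 with a p-value of 0.0262, from an unpaired test. FBP took place 88 by size among the 323 probe sets higher in soleus, and FBP2 place 70 among the 226 lower in soleus. By p-value in the authors' deposited table they took places 279 and 310 of 550. Neither was at the edge of that selection, where the largest p-value kept was 0.04996 and the smallest fold 1.501. Just outside it lay a probe set at 0.05003 with 1.66-fold, and on the other limit one at 1.499-fold.

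On the arrays themselves, the FBP value of soleus replicate 1 lay above 99.2% of all centred values of that array, and that of soleus replicate 2 above 84.5%. For FBP2, 3.30% of the values of soleus replicate 3 were lower, as were 12.3% of those of soleus replicate 1. Soleus replicate 3 had the widest values of all arrays, whose SD across all probe sets was 0.50 there and 0.24 to 0.31 elsewhere. With every array scaled to the same SD, the difference was -0.85 for FBP2 and 1.08 for FBP.

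The reaction opposite to fructose-1,6-bisphosphatase is carried out by phosphofructokinase. Of a list of 66 glycolytic, gluconeogenic and glycogen genes, the authors' table names 4 through its symbols and titles, counting FBP and FBP2, with 3 higher in soleus, 1 lower and 0 past the adjusted threshold. Of all 549 non-control probe sets kept in the table, which are 2.29% of those tested, 58.8% were higher in soleus, as were 45.8% of all those tested. The differences of the 4 named genes, from -0.90 to 1.21, were all past 1.5-fold because the table keeps nothing smaller, so no median is given. PFKP, the platelet type of phosphofructokinase, named here from its similarity to a macaque sequence, read 0.53, 0.36 and 1.21 in soleus replicates 1, 2 and 3, against -0.36, -0.46 and -0.69 in longissimus dorsi replicates 1, 2 and 3. Its muscles did not overlap, and its log2 difference was 1.21 (SE 0.24), or 2.31-fold, at a limma adjusted p of 0.312. PYGL, the liver type of glycogen phosphorylase, which releases glucose 1-phosphate from glycogen, read 0.55, 0.13 and 0.77 in soleus replicates 1, 2 and 3. In longissimus dorsi replicates 1, 2 and 3 it read -0.37, -0.21 and -0.13, for a log2 difference of 0.72 (SE 0.20, limma adjusted p = 0.433).

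FBP and PFKP, which would act on the same pair of sugar phosphates in opposite directions, thus had higher values in soleus by similar amounts. FBP minus PFKP on the same array was 0.63, -0.15 and -0.56 in soleus replicates 1, 2 and 3, against -0.02, 0.25 and 0.05 in longissimus dorsi replicates 1, 2 and 3. The muscles overlapped here, with a mean difference of -0.12 (SE 0.36), and the soleus arrays spread over 1.19 log2 units. FBP2 was the only one of the 4 with lower values in soleus.

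GAPDH, the glycolytic enzyme below aldolase, is on the array as 9 control probe sets, which were not picked for a difference between muscles. Their values stayed between -0.13 and 0.08 on all arrays. Their differences ran from -0.06 to 0.00 with 8 of the 9 below 0, and the smallest limma adjusted p was 0.926 with the controls kept in the fit. The muscle forms of phosphofructokinase, aldolase and glycogen phosphorylase, and PCK1 and PCK2, are not named in the table and were not analysed here.

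**Figure D4:**
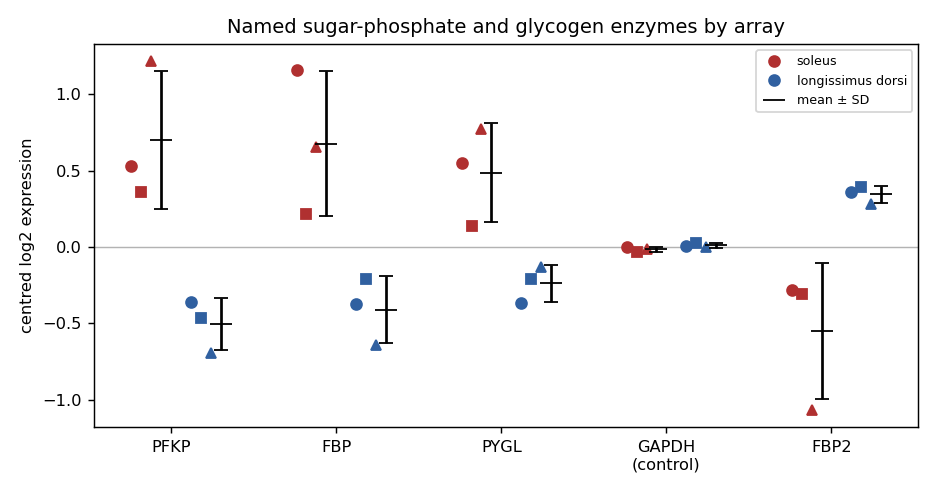
Centred log2 expression of PFKP, FBP, PYGL, a GAPDH control probe set and FBP2 on each array, soleus in red to the left and longissimus dorsi in blue to the right of each pair, with mean ± SD bars; the marker shape gives the replicate number (circle 1, square 2, triangle 3). PFKP, FBP and PYGL lie higher in soleus (differences 1.21, 1.09 and 0.72), FBP2 lies lower (-0.90), and GAPDH lies on 0 in both muscles.

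Enzymes near this pathway that were picked out after their values were seen ran both ways. PDK3, a kinase that switches off pyruvate dehydrogenase, had lower means in soleus on both of its probe sets, by -0.66 and -0.94. PGM3, a phosphoglucomutase of hexosamine metabolism, differed by -0.66, and the starch-cleaving amylase AMY2B by -0.85 and -0.95 on 2 probe sets. CKB, the brain type of creatine kinase, differed by 0.73. It read 0.70, 0.13 and 0.67 in soleus replicates 1, 2 and 3, with replicate 2 the lowest, as in FBP, PFKP and PYGL. This order was not particular to these enzymes. Soleus replicate 2 was also lowest for DAPK1 and on both probe sets of the collagen gene COL1A2, though not for MYOZ2 or LAPTM5.

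The genes whose 6 values were most like those of FBP were sought among the named probe sets of the table. In all 549 the muscles did not overlap, which raises Pearson's r between any pair of the same direction, and with FBP it ran from 0.47 to 0.99 with a median of 0.80 over the 322 other probe sets with higher soleus values. The 5 closest to FBP were CLEC3B (tetranectin, a plasminogen-binding protein of the matrix and plasma, r = 0.994), elastin (r = 0.988), the retinoic acid binding protein CRABP1 (r = 0.986), the transcription factor GATA-6 (r = 0.981) and the collagen-binding proteoglycan BGN (r = 0.981). CLEC3B had means of 0.67 ± 0.53 in soleus and -0.46 ± 0.23 in longissimus dorsi (SD, n = 3 arrays each), nearly those of FBP. Elastin differed by 1.31 on this probe set, CRABP1 by 1.27, GATA-6 by 1.16 and BGN by 0.84.

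For FBP2 the median r was 0.89 over the 225 other probe sets with lower soleus values. The closest was a probe set titled phosphatidic acid phosphatase type 2d (r = 0.998, difference -0.67). It was followed by a probe set titled ChaC, cation transport regulator-like 2 (r = 0.994, difference -0.93), and the mitochondrial ribosomal protein S26 (r = 0.994, difference -1.08). A cytosolic nucleotidase (r = 0.992, difference -0.62) and an orphan phosphatase (r = 0.991, difference -0.68) came next. The SDs of these 5 were 0.31 to 0.56 in soleus and 0.05 to 0.17 in longissimus dorsi, the same uneven spread as in FBP2. Their choice by r over the same 6 values brings this likeness of spread with it. These likenesses rest on 6 arrays and describe the shape of the values alone.

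Fibre-type and cell-type markers named in the table give the muscles' composition only in part. Of the slow fibre list, 2 of 11 genes were named, MYBPC1 and MYOZ2, on 3 probe sets that were all higher in soleus, by 0.86 to 1.19. Of the fast fibre list, 1 of 13 was named, the myosin heavy chain MYH4 of the fastest fibres, which differed by -0.59. A slow myosin heavy chain transcript, named by likeness to a cattle sequence, ran against its fibre type, with -0.47 ± 0.18 in soleus and 0.51 ± 0.21 in longissimus dorsi (SD, n = 3 arrays each). FBP2 ran in the direction of MYH4, but also in that of this slow myosin probe set, which differed by -0.98. FBP ran in the direction of MYBPC1 and MYOZ2 and against the slow myosin probe set. The part of fibre type in either member was not tested.

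Markers of cells other than fibres moved as well. Of the fibroblast and tendon list, 5 of 7 genes were named, on 7 probe sets that were all higher in soleus, by 0.59 to 1.82. Their mean per array was 0.39 to 0.79 in soleus and -0.63 to -0.26 in longissimus dorsi, and its part in the FBP difference was not tested. Of the monocyte, macrophage and leukocyte list, 1 of 10 genes was named, LAPTM5, which differed by 0.65, and of the nerve list 1 of 4, MBP, at -0.91. The hepatocyte and kidney list had 0 of 8 genes named, the adipocyte list 0 of 5 and the endothelium list 0 of 5, and those genes were not analysed here.

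DAPK1, a death-associated protein kinase gene that follows CTSL beyond FBP2 in RefSeq's Sscrofa11.1 annotation, was also in the table and was noticed after its values were seen. It read 0.18, 0.13 and 0.23 in soleus replicates 1, 2 and 3, against -0.52, -0.13 and -0.71 in longissimus dorsi replicates 1, 2 and 3. Its log2 difference of 0.64 (SE 0.18) had the direction of FBP and the opposite of FBP2. The difference between 3′ and 5′ control probe sets, a sign of RNA integrity, rises where RNA is degraded. In values centred per probe set its level is lost, and it can only be compared between arrays. For 1 pair of GAPDH controls it was -0.02 to 0.00 in soleus and -0.05 to 0.01 in longissimus dorsi. Another GAPDH pair varied more. Its 3′ and 5′ probe sets read -0.02 and -0.11 in soleus replicate 1, and 0.00 and 0.08 in soleus replicate 3. For the actin and ef1a controls the difference between 3′ and 5′ was lowest, not highest, in soleus replicate 3, at -0.60 and -0.22. That array also held the lowest FBP2 value. The part of RNA integrity in that value was not tested.

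Both members kept their direction when single arrays were left out and when the arrays were rescaled. The difference of FBP ran from 0.84 to 1.32 and that of FBP2 from -1.03 to -0.64 over these alternatives. The gap between them ran from -2.34 to -1.74. The smallest FBP difference came without soleus replicate 1 and the FBP2 difference nearest to 0 without soleus replicate 3. Because the muscles did not overlap for the members or the gap, leaving out an array could not change a direction. The rescaled values are descriptions too, since the members came from a list selected on this difference.

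**Figure D5:**
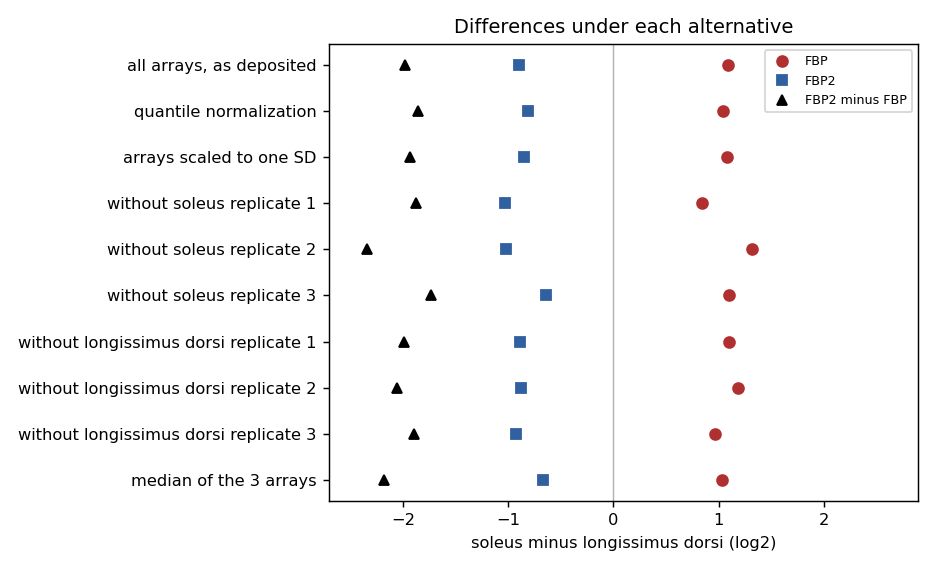
Log2 difference, soleus minus longissimus dorsi, of FBP (red circles), FBP2 (blue squares) and FBP2 minus FBP (black triangles) with all arrays and under each alternative named on the vertical axis. FBP stays between 0.84 and 1.32, FBP2 between -1.03 and -0.64 and the gap between -2.34 and -1.74.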

How the data were processed

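Per the labels' protocols, total RNA of soleus and longissimus dorsi (3 pigs, TRIzol then RNeasy) was biotin-labelled by in vitro transcription, and per the file headers the array was the Affymetrix porcine GeneChip. MAS5 2.3.1 is named, without a role, per the submitters' processing notes, and the way probes were summarised is not given in the sources used here. Values were used as deposited. The deposited log2 values have a median of 0 for every probe set, within 5e-07, so the authors centred them and no depth or intensity remains. The authors' table gives, per the file headers, the p-value of an unpaired test and a fold ratio at limits of 0.05 and 1.5. An equal-variance test on the values gave its p-values to within 4.738e-07.

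The 188 control probe sets were left out and the other 23935 fitted with limma 3.58.1 (R 4.3.3), unfiltered and unpaired, with Benjamini-Hochberg adjustment. The fit was tested on simulated data. Members are the probe sets whose title names fructose-1,6-bisphosphatase. The gap is the difference of the 2 members on one array, given with its SE and no p. Named genes were the members, the named genes of the sugar and marker lists, and the 5 genes of highest Pearson correlation per member (Python 3.11.15). PDK3, PGM3, AMY2B, CKB, DAPK1 and the slow myosin probe set were named after their values were seen. Members and lists were chosen with earlier results of these data known. Gene names come from the authors' table, from 1 symbol or title per probe set. Alternatives were quantile normalization, arrays scaled to the same SD, a replicate block, a variance trend, the authors' test, kept controls, and each array left out. In the unpaired fit, p-values set the difference between muscles against the spread of arrays within a muscle, all from 3 littermates. They take no account of pigs shared between the muscles.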

Additional observations from a re-analysis of the deposited data

How the results depend on the processing

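The count of 2 probe sets at an adjusted p under 0.05 in limma became 6 with quantile normalization. With arrays scaled to the same SD it was 5, with a variance trend 10 and with the replicate number as a block 7. It became 1219 at an unadjusted p under 0.05 with 1.5-fold, and lay between 1 and 4 with single arrays left out, at 1 without longissimus dorsi replicate 1 and at 4 without soleus replicate 3. The causes were not tested. Both members met the unadjusted rule, and neither reached an adjusted p under 0.05 in any fit, with adjusted p-values of 0.225 to 0.990 for FBP and 0.177 to 0.990 for FBP2 over 11 alternatives. Same-numbered arrays deviated together with correlations of -0.138, 0.108 and 0.255, and only the arrays numbered 3 correlated best with their own number. With 3 arrays per muscle, this cannot decide whether a number marks a pig. The numbers were not taken as pairs because the labels do not say so and the authors' test was unpaired. With the replicate block the differences stayed at 1.09 for FBP (SE 0.25) and -0.90 for FBP2 (SE 0.21), and the gap at -1.98 (SE 0.45). All 12 alternatives for each member, and all 10 for the gap, moved the value by less than the pooled SD within muscles (0.369 for FBP, 0.319 for FBP2 and 0.460 for the gap), with no change of sign. The replicate block, the variance trend and the authors' test leave a difference as it is by design. Since the muscles did not overlap, leaving out an array or taking the median could not turn a sign. Taking the median of the 3 arrays, chosen after seeing the data, gave 1.03 for FBP, -0.67 for FBP2 and -2.18 for the gap. PFKP ran from 0.95 to 1.38 and PYGL from 0.58 to 0.90 over the same alternatives, also added after seeing the data. Signal over background is unknown in centred values.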
